A study of Mus musculus and Homo sapiens with 24 samples.

Results

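The WNT ligands, their Frizzled, LRP and LGR receptors, the R-spondins, the secreted antagonists and 5 genes of feedback or transcription were followed through the differentiation of a mouse and a human myoblast line. Members were taken by gene symbol: every WNT, FZD, SFRP, DKK and RSPO gene, LGR4, LGR5 and LGR6, and LRP5, LRP6, AXIN2, LEF1, TCF7, NKD1, NKD2 and WIF1. The rule found 52 genes among the 56748 rows of the C2C12 table and 52 among the 58735 rows of the LHCN-M2 table. They are 19 WNT ligands, 10 Frizzled receptors, 2 LRP co-receptors, 3 LGR receptors, 4 R-spondins, 9 secreted antagonists and 5 genes of feedback or transcription. No measured value entered the rule, but the members were chosen with earlier results of these data known.

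WNT proteins are secreted, lipid-modified ligands that bind Frizzled receptors, and the co-receptors LRP5 and LRP6 join them when the signal runs through beta-catenin and the DNA-binding factors LEF1 and TCF7. SFRP proteins and WIF1 bind WNTs outside the cell, DKK1 and DKK2 bind the LRP co-receptors, and R-spondins act through LGR receptors to keep Frizzled proteins at the cell surface. In skeletal muscle the pathway is known for its part in forming the embryonic muscle and in the switch of muscle progenitors from growth to differentiation.

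The series holds polyadenylated RNA of C2C12, an established mouse myoblast line, at days 0, 1 and 6 of differentiation, and of LHCN-M2, a human myoblast line immortalised with TERT and CDK4, at days 0, 1 and 12. Each of these 6 groups has 4 libraries, all 24 carry the genotype label control, and no other allele, agent or treatment is labelled. The labels name skeletal myoblast as the cell type and do not state whether the 4 libraries of a group are separate cultures. The p-values therefore rest on differences among libraries, which may be technical. The last days, 6 and 12, are not the same time.

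The 12 libraries of C2C12 held 32795699 to 43827517 counts each, and those of LHCN-M2 33030258 to 48546621. Levels below are CPM, counts scaled to a common library total after TMM scaling. RPKM, which also divides by the deposited gene length, is used wherever genes are compared with each other. Replicate 2 of LHCN-M2 day 0 stood apart from its group, with a root mean square log2 distance of 0.447 against 0.227 to 0.257 for its mates, and several results below are given with and without it. Replicate 1 of LHCN-M2 day 12 stood apart less, at 0.245 against 0.189 to 0.207 for its mates. Of 8 myoblast and muscle genes, all had counts at every day in C2C12 and their summed level went from 257 to 272 CPM at day 0 to 2393 to 2518 CPM at day 6. In LHCN-M2 7 of the 8 had counts at day 0, where MYOG was at 0 in all 4 libraries, and the sum went from 564 to 759 CPM at day 0 to 5226 to 5513 CPM at day 12. A list of 8 fibroblast and matrix genes, led by collagens, was also high. In C2C12 it summed to 14623 to 17074 CPM at day 0 and 10830 to 11320 CPM at day 6, with Thy1 at 0 on both days. In LHCN-M2, where all 8 had counts, it summed to 10526 to 10905 CPM at day 0 and 24322 to 25359 CPM at day 12. The 5 endothelial genes summed to at most 1.67 CPM in C2C12 and 20.1 CPM in LHCN-M2, where CDH5 was at 0, and the 5 immune genes to at most 4.60 and 3.64 CPM. Among 4 further lists, the 6 neural genes went from 20.1 to 24.5 CPM at day 0 to 312 to 328 CPM at day 6 in C2C12, led by Tubb3 with Sox10 at 0, and in LHCN-M2 they summed to at most 12.6 CPM. The 6 smooth muscle genes summed in C2C12 to 1609.8 to 1762 CPM at day 0, 2419 to 3108 CPM at day 1 and 1336 to 1534 CPM at day 6. Most of this sum was Acta2, with means of 1640 CPM at day 0 and 2693 CPM at day 1. Some members below, among them Wnt10a, Fzd1, Fzd2, Lrp6 and Axin2, were also highest at day 1, while others, such as Sfrp1 and Dkk2, were not. In LHCN-M2 the smooth muscle genes went from 235 to 382 CPM at day 0 to 782 to 857 CPM at day 12. The 6 adipocyte genes summed to at most 144 CPM in C2C12 and 9.31 CPM in LHCN-M2, and the 6 bone and cartilage genes to at most 108 and 109.9 CPM. The part of these marker genes in the results below was not tested, and in bulk RNA fewer cells of a type and less RNA per cell cannot be told apart.

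In C2C12, 35 of the 52 members passed the filter on low counts, 10 had a few counts without passing, and 7 had no count in any of 12 libraries: Dkk1, Fzd10, Wnt3a, Wnt7a, Wnt8a, Wnt8b and Wnt9b. In LHCN-M2, 34 passed, 12 had a few counts and 6 had none: FZD10, RSPO1, RSPO2, WNT1, WNT3A and WNT7A. No member that failed the filter exceeded 0.160 CPM in a C2C12 day mean or 0.292 CPM in an LHCN-M2 day mean. A day mean of at least 10 CPM was reached by 21 members in C2C12 and 17 in LHCN-M2, and 27 members passed in both lines. A filter on counts admits a gene through the days on which it is high, so the counts below are given over all 52 members. The shares over all genes beside them count only genes that passed, whereas 17 members in C2C12 and 18 in LHCN-M2 did not and could not be called.

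On the first day of C2C12 differentiation, 11 of 52 members rose and 10 fell (edgeR quasi-likelihood test, adjusted p under 0.05 over all genes tested), where 25.9% of all 17065 genes tested rose and 24.4% fell. Between days 0 and 6, 11 rose and 18 fell, beside 33.1% and 32.5% of all genes. From day 1 to day 6, 13 rose and 15 fell, beside 32.8% and 28.6%. In LHCN-M2, 12 members rose and 7 fell on the first day, beside 23.4% and 23.5% of 18214 genes. By day 12, 17 rose and 9 fell against day 0, beside 27.1% and 27.5%, and 13 rose and 13 fell against day 1, beside 20.9% and 18.8%. The median log2 fold change of the members that passed was -0.17 at day 6 against day 0 in C2C12, where that of all genes was -0.03, and 0.52 at day 12 against day 0 in LHCN-M2, where that of all genes was -0.01. All of these medians cover only genes that passed the filter, and a gene can pass through the days on which it is high. Members such as WNT10A, SFRP5 and RSPO3 had few or no counts at day 0 of LHCN-M2. The 3 comparisons within a line share libraries and are not independent of each other. In low counts of 1 to 10, even numbers made up 67.6% of the values in C2C12 and 67.3% in LHCN-M2, so counting errors of rare members may be larger than single reads would give. The limits of 3 counts and the counting intervals below take counts as single reads. The lowest folds given may therefore be too high and the intervals too narrow.

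**Figure D1:**
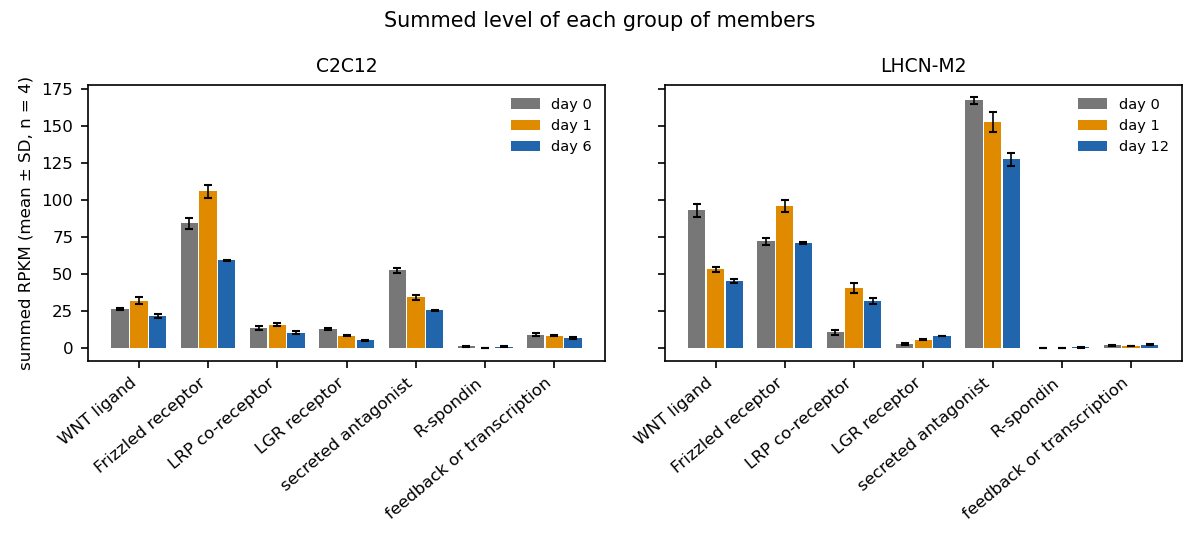
Summed RPKM of each group of members by day (bars, mean; error bars, SD of 4 libraries) in C2C12 and LHCN-M2. WNT ligands summed to 93.1 RPKM in LHCN-M2 and 26.4 RPKM in C2C12 at day 0, and the LRP co-receptors of LHCN-M2 stood at 10.6, 40.7 and 31.9 RPKM on days 0, 1 and 12.

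Ligands differed in kind between the lines. In C2C12 the sum of the WNT ligands was 26.4 ± 0.741 RPKM at day 0, 32.1 ± 2.44 at day 1 and 21.7 ± 1.12 at day 6 (SD, n = 4), and Wnt10a, known from tooth and skin appendage development, held 51.9%, 70.0% and 32.9% of it. In LHCN-M2 the sum was 93.1 ± 4.54, 53.1 ± 1.90 and 45.6 ± 1.35 RPKM, and WNT5A, a ligand best known for signals that do not run through beta-catenin, held 63.4%, 72.5% and 48.7%. At day 0 of LHCN-M2, WNT5A (59.0 ± 10.9 RPKM) and WNT5B (30.6 ± 6.62 RPKM) stood above all other ligands, and WNT9A followed at 2.29 ± 0.175 RPKM. At day 0 of C2C12 the order was Wnt10a (13.7 ± 0.697 RPKM), Wnt10b (9.03 ± 0.491 RPKM) and Wnt9a (1.40 ± 0.282 RPKM). By day 6, Wnt10a (7.15 ± 0.908 RPKM), Wnt9a (5.83 ± 0.661 RPKM) and Wnt10b (4.91 ± 0.422 RPKM) were neighbours. The means of Wnt10a and Wnt9a, and those of Wnt9a and Wnt10b, were closer than the sum of their SDs.

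In C2C12 the ligands parted into those that rose and those that fell. Wnt10a was at 35.2, 31.5, 35.0 and 33.3 CPM at day 0. At day 1 Wnt10a was at 58.9, 51.4, 59.3 and 51.9 CPM and at day 6 at 17.6, 17.3, 15.1 and 20.6 CPM. All libraries of day 1 lay above and all of day 6 below those of day 0: the log2 fold change was 0.71 ± 0.08 (SE; adjusted p = 3.92e-07) on the first day and -1.65 ± 0.09 (SE; adjusted p = 8.02e-13) from day 1 to day 6. Wnt10b, a ligand known for holding back fat cell formation, went from 30.7 ± 1.67 to 17.6 ± 2.89 CPM (SD, n = 4) on the first day and stood at 16.7 ± 1.44 CPM at day 6. Its log2 fold change of the first day was -0.80 ± 0.10 (SE; adjusted p = 9.32e-07), and no difference between days 1 and 6 was called (adjusted p = 0.526). Wnt9a, known from joint formation, was at 4.22, 4.52, 6.03 and 3.90 CPM at day 0. At day 1 Wnt9a was at 7.52, 6.13, 7.92 and 7.31 CPM and at day 6 at 21.9, 19.2, 19.9 and 16.6 CPM. No library overlapped between days, and the log2 fold changes were 0.63 ± 0.14 (SE; adjusted p = 0.000639) on the first day and 2.06 ± 0.14 (SE; adjusted p = 2.91e-11) over all 6 days. Wnt7b rose at both steps, with 2.07, 1.57, 1.92 and 1.43 CPM at day 0, 4.43, 4.71, 4.49 and 4.71 CPM at day 1 and 9.19, 8.75, 7.63 and 6.11 CPM at day 6, and its log2 fold change over 6 days was 2.18 ± 0.17 (SE; adjusted p = 5.14e-10).

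Wnt5a was close to absent from C2C12 before day 6. A single library of day 0 held all 4 of its counts there (0.101 CPM), all 4 libraries of day 1 were at 0, and day 6 stood at 2.94, 4.54, 2.34 and 2.62 CPM. With counts taken as single reads, day 6 was at least 172-fold above a limit of 3 counts over the 4 libraries of day 1. Wnt4, a ligand known from kidney and gonad development, rose late, from 0.537 to 1.06 CPM at day 1 to 2.04 to 2.45 CPM at day 6, a log2 fold change of 1.41 ± 0.32 (SE; adjusted p = 0.000741). Wnt6 fell from 2.07 ± 0.657 to 0.689 ± 0.173 CPM between days 0 and 6, with no overlap between the libraries (-1.59 ± 0.33 on the log2 scale, adjusted p = 0.000212). Wnt11, at 1.47 ± 0.361 CPM at day 0 and 0.700 ± 0.390 CPM at day 1, fell on the first day with an adjusted p of 0.0333, and the call was lost with a replicate block. Wnt5b stayed under 2 CPM in every C2C12 library and shares its locus with Fbxl14 on the other strand, which had 16240 counts against its 332. It rose from day 1 to day 6 (1.70 ± 0.48 on the log2 scale, adjusted p = 0.00441). Wnt2b passed no test, and the remaining 9 ligands did not pass the filter.

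**Figure D2:**
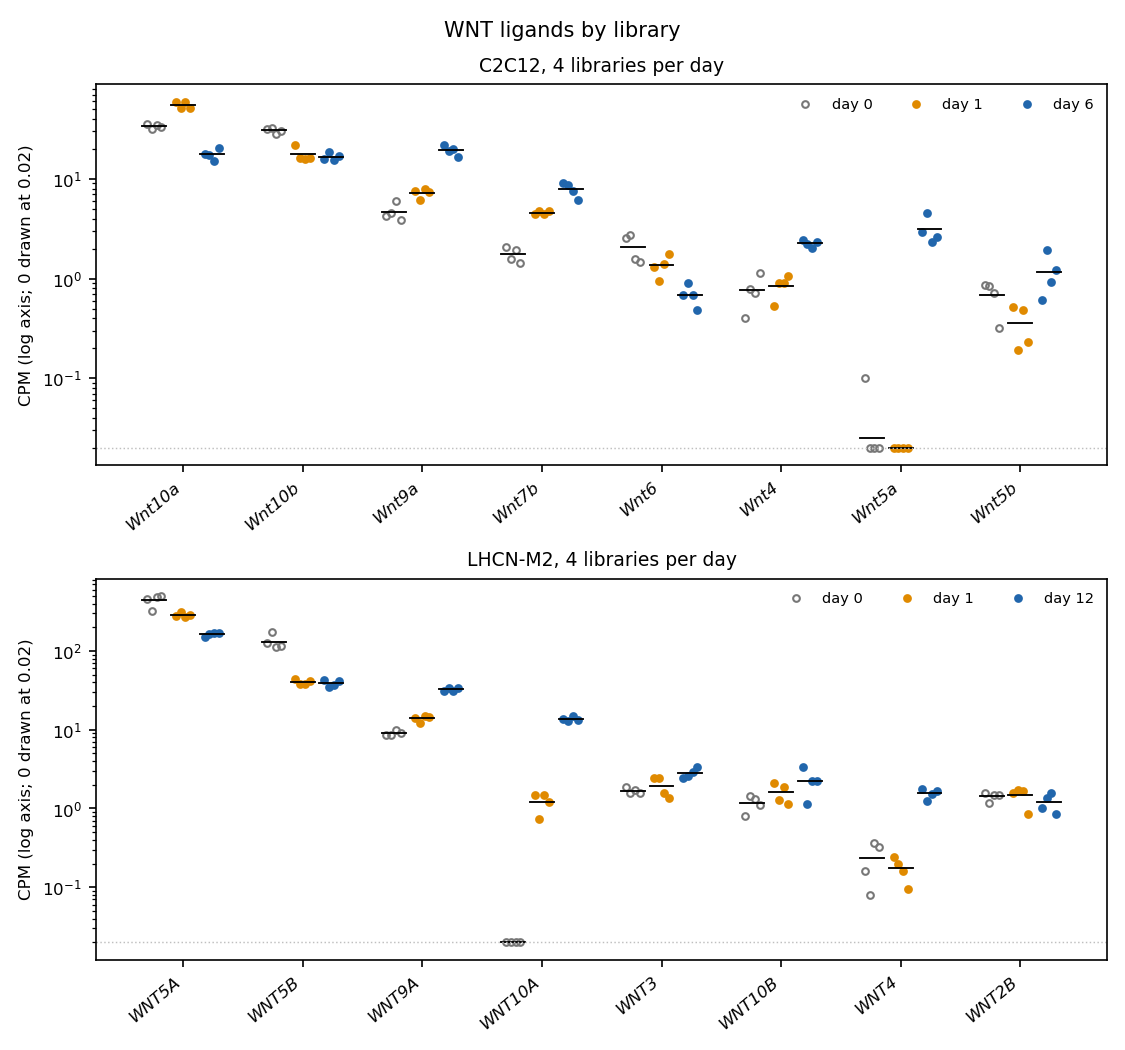
CPM of 8 WNT ligands in each line, on a log axis with 0 drawn at 0.02; each point is a library (4 per day) and each bar a day mean. Wnt5a of C2C12 lies above 2 CPM only at day 6 and WNT10A of LHCN-M2 is at 0 at day 0, while WNT5A and WNT5B of LHCN-M2 start highest and lie lower at days 1 and 12.

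The abundant ligands of LHCN-M2 fell and rarer ones rose. WNT5A (chromosome 3, 55465715 to 55490539 on GRCh38, minus strand) was at 450.4, 319, 482 and 495 CPM at day 0. At day 1 WNT5A was at 280.5, 309.7, 267 and 283 CPM and at day 12 at 152, 166, 169 and 170.1 CPM. Days did not overlap, and the log2 fold change was -0.62 ± 0.11 (SE; adjusted p = 0.000345) on the first day and -1.41 ± 0.11 (SE; adjusted p = 5.91e-08) by day 12. The lowest library of day 0 was replicate 2. WNT5B was at 128, 173, 111 and 115 CPM at day 0, with replicate 2 the highest, and at 40.2 ± 2.62 and 39.2 ± 3.49 CPM at days 1 and 12. Its log2 fold change of the first day was -1.71 ± 0.13 (SE; adjusted p = 3.13e-08), or -1.53 (adjusted p = 1.20e-12) without replicate 2 of day 0, and no difference between days 1 and 12 was called (adjusted p = 0.851). FBXL14, on the other strand of the WNT5B locus, had 15.9% of its counts. WNT10A (chromosome 2, 218880363 to 218899581, plus strand) had 0 counts in all 4 libraries of day 0, stood at 1.49, 0.734, 1.48 and 1.20 CPM at day 1 and at 13.6, 12.9, 14.9 and 13.5 CPM at day 12. Against 3 counts over the 4 libraries of day 0, taken as single reads, day 1 was at least 63.9-fold and day 12 at least 716-fold higher. From day 1 to day 12 the log2 fold change was 3.48 ± 0.21 (SE; adjusted p = 1.08e-07).

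WNT9A rose in LHCN-M2 too, with 8.52, 8.59, 10.02 and 9.20 CPM at day 0, 14.0, 12.1, 15.1 and 14.6 CPM at day 1 and 31.3, 33.9, 31.3 and 33.5 CPM at day 12. No library overlapped between days and the log2 fold change by day 12 was 1.84 ± 0.10 (SE; adjusted p = 4.41e-10). WNT4 was under 0.4 CPM in all libraries of days 0 and 1 and at 1.78, 1.26, 1.53 and 1.69 CPM at day 12 (3.14 ± 0.47 on the log2 scale, adjusted p = 7.81e-05 against day 1). WNT3 reached 2.81 ± 0.408 CPM at day 12 from 1.68 ± 0.136 CPM at day 0 (adjusted p = 0.0126). WNT10B, at 1.17 ± 0.272 and 2.25 ± 0.906 CPM, rose with an adjusted p of 0.0236 although the libraries overlapped, and the call was lost with a replicate block. WNT2B and WNT16 passed no test, and the other 10 ligands did not pass the filter.

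Frizzled receptors were the most abundant group of C2C12 by summed RPKM, with 84.3 ± 3.81 at day 0, 106 ± 4.64 at day 1 and 59.3 ± 0.580 at day 6 (SD, n = 4). In LHCN-M2 the same sum was 72.3 ± 2.32, 96.0 ± 3.99 and 71.0 ± 0.711 RPKM. The leading receptor was Fzd1 in C2C12, with 33.7 ± 2.22 RPKM at day 0 before Fzd2 with 20.1 ± 0.794 RPKM, and FZD2 in LHCN-M2, with 30.4 ± 2.45 RPKM before FZD6 with 17.2 ± 2.31 RPKM. At day 6 Fzd1 and Fzd2 no longer differed beyond their SDs, at 17.8 ± 0.793 and 17.8 ± 1.22 RPKM. Of the 10 Frizzled genes of C2C12, 3 rose and 1 fell on the first day, where 25.9% and 24.4% of all genes tested did. Between days 0 and 6, 1 rose and 7 fell, beside 33.1% and 32.5%. Of the 10 in LHCN-M2, 3 rose and 2 fell on the first day, beside 23.4% and 23.5%, and 4 rose and 3 fell between days 0 and 12, beside 27.1% and 27.5%.

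Fzd1 of C2C12 was at 131, 136, 152 and 146 CPM at day 0. At day 1 Fzd1 was at 225, 217, 244 and 217 CPM and at day 6 at 78.2, 72.8, 71.3 and 77.2 CPM, without overlap between days. Its log2 fold change was 0.68 ± 0.06 (SE; adjusted p = 5.58e-09) and then -1.59 ± 0.06 (SE; adjusted p = 4.21e-15). Fzd2 followed the same course with smaller steps, from 73.5 ± 2.91 to 93.1 ± 5.61 and 65.3 ± 4.46 CPM. Fzd4, which is also the receptor of the ligand norrin, was at 19.6, 23.6, 24.1 and 22.5 CPM at day 0. At day 1 Fzd4 was at 5.08, 6.05, 5.57 and 5.92 CPM and at day 6 at 9.46, 8.78, 9.65 and 8.58 CPM. The lowest levels were those of day 1, with a log2 fold change of -1.99 ± 0.10 (SE; adjusted p = 2.00e-12) on the first day and of 0.69 ± 0.10 (SE; adjusted p = 5.97e-06) from day 1 to day 6. Fzd8 was at 14.6 to 17.5 CPM at day 0 and 15.5 to 19.3 CPM at day 1, and all 4 libraries of day 6 were lower, at 5.34, 4.63, 5.48 and 3.93 CPM (-1.78 ± 0.12 on the log2 scale, adjusted p = 4.18e-11 against day 1). Fzd3, known for guiding axons and orienting cells, was the one Frizzled receptor of C2C12 to rise over 6 days: 2.07, 1.54, 1.71 and 2.12 CPM at day 0, 5.82, 4.16, 3.43 and 5.15 CPM at day 1 and 12.3, 11.1, 12.5 and 12.7 CPM at day 6, with a log2 fold change of 2.70 ± 0.17 (SE; adjusted p = 1.38e-11). Fzd5, Fzd6 and Fzd7 fell by at most 0.47 on the log2 scale between days 0 and 6. Fzd9 stayed under 1 CPM in every library and passed no test.

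FZD8 in LHCN-M2 (chromosome 10, 35638249 to 35642278, minus strand) was at 16.5, 12.5, 14.5 and 15.8 CPM at day 0. At day 1 FZD8 was at 11.1, 9.26, 11.2 and 9.47 CPM and at day 12 at 49.9, 44.2, 48.3 and 48.6 CPM. It fell on the first day (-0.54 ± 0.10 on the log2 scale, adjusted p = 0.000609) and the libraries of day 12 lay above all others, with 2.22 ± 0.11 (SE; adjusted p = 5.45e-10) against day 1. FZD9 was at 1.33, 1.75, 0.413 and 0.562 CPM at day 0 and 1.88, 1.02, 2.12 and 1.20 CPM at day 1, which overlapped, and rose to 8.65, 7.75, 7.16 and 8.53 CPM at day 12 (2.99 ± 0.36 on the log2 scale, adjusted p = 5.23e-06 against day 0), or by 3.40 (adjusted p = 2.04e-08) without replicate 2 of day 0. Its change of the first day had an adjusted p of 0.180, and without replicate 2 of day 0 the log2 fold change was 1.05 (adjusted p = 0.0114). FZD2 rose on the first day from 64.3 ± 5.17 to 112 ± 6.55 CPM (0.80 ± 0.08 on the log2 scale, adjusted p = 4.83e-07) and was at 56.0 ± 1.53 CPM at day 12. Its lower level at day 12 than at day 0 (adjusted p = 0.0360) was no longer called with RLE scaling, DESeq2, no filter on low counts or a replicate block. FZD1 fell at each step, from 69.8 ± 10.6 to 55.1 ± 1.47 and 35.6 ± 2.79 CPM. FZD5 and FZD6 rose on the first day by 0.76 and 0.28 on the log2 scale and fell from day 1 to day 12, the fall of FZD5 (adjusted p = 0.0255) not being called without a filter on low counts. FZD7 fell by 0.38 between days 0 and 12. FZD4 rose by 0.74 by day 12 and shares its locus with PRSS23 on the other strand. PRSS23 had 331888 counts against 4003 of FZD4 and rose by 0.88 in the same comparison, and no source used here gives the strand setting of the counting. FZD3 stayed under 2 CPM in every library and rose from day 1 to day 12 (2.03 ± 0.54 on the log2 scale, adjusted p = 0.00757).

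The co-receptor LRP5 moved in the human line and passed no test in the mouse line. In LHCN-M2, LRP5 (chromosome 11, 68312609 to 68449275, plus strand) was at 41.8, 39.1, 39.8 and 48.1 CPM at day 0. At day 1 LRP5 was at 223, 191, 236 and 234 CPM and at day 12 at 146, 156, 153 and 167 CPM. All libraries of days 1 and 12 lay above those of day 0, with log2 fold changes of 2.39 ± 0.09 (SE; adjusted p = 2.25e-11) and 1.88 ± 0.09 (SE; adjusted p = 1.64e-10). In C2C12, Lrp5 was at 56.1 ± 4.69, 62.4 ± 4.16 and 58.4 ± 3.82 CPM at days 0, 1 and 6, with overlapping libraries and adjusted p-values of 0.0739 for day 1 against day 0, 0.479 for day 6 against day 0 and 0.248 for day 6 against day 1. The first of these went below 0.05 in 8 fits that each left out 1 library, with log2 fold changes of 0.19 to 0.22. Lrp6 of C2C12 was at 92.5, 111, 119 and 111 CPM at day 0. At day 1 Lrp6 was at 123, 123, 143 and 128 CPM and at day 6 at 62.5, 49.6, 65.0 and 63.3 CPM. It rose by 0.26 on the first day (adjusted p = 0.0132) and fell by 1.11 on the log2 scale from day 1 to day 6 (adjusted p = 3.24e-10). LRP6 of LHCN-M2 was at 46.4, 21.1, 41.3 and 45.9 CPM at day 0. At day 1 LRP6 was at 50.0, 52.1, 46.7 and 50.0 CPM and at day 12 at 54.2, 81.5, 72.3 and 69.3 CPM. It rose by day 12 with a log2 fold change of 0.84 ± 0.19 (SE; adjusted p = 0.00177). Replicate 2 of day 0 was the lowest library, and without it the value was 0.65 (adjusted p = 1.61e-05). From day 1 to day 12 the log2 fold change was 0.48 ± 0.19 (SE; adjusted p = 0.0593) with all libraries, and without replicate 2 of day 0 the log2 fold change was 0.47 (adjusted p = 0.000261). This later rise of LRP6 was also called without replicate 1 of day 12 (0.58, adjusted p = 0.0348). It was called too with no filter on low counts, only the days compared or DESeq2, and not with RLE scaling or a replicate block.

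Among the LGR receptors, Lgr4 and LGR4 moved in opposite directions in the lines. Lgr4 of C2C12 was at 69.3, 75.4, 78.2 and 74.2 CPM at day 0. At day 1 Lgr4 was at 46.2, 46.0, 48.6 and 42.4 CPM and at day 6 at 22.9, 21.9, 23.6 and 21.7 CPM, a log2 fold change of -1.72 ± 0.06 (SE; adjusted p = 2.25e-15) with no overlap between days. LGR4 of LHCN-M2 was at 15.6, 9.97, 16.0 and 20.0 CPM at day 0. At day 1 LGR4 was at 34.6, 36.3, 38.5 and 32.2 CPM and at day 12 at 51.5, 52.3, 51.9 and 49.8 CPM, also with no overlap. It rose by 1.74 ± 0.15 (SE; adjusted p = 1.36e-07), or by 1.59 (adjusted p = 9.26e-12) without replicate 2 of day 0, its lowest library. Lgr6 passed the filter in C2C12, unlike LGR6 in LHCN-M2, and rose from 1.67, 2.35, 1.44 and 2.65 CPM at day 0 to 7.62, 5.78, 7.47 and 9.12 CPM at day 6 (1.89 ± 0.20 on the log2 scale, adjusted p = 6.41e-08). Lgr5, a stem cell marker of the intestine, had 1 library with counts at day 0 and was at 0.268, 0.384, 0.0460 and 0.154 CPM at day 1 and 2.55, 2.48, 2.15 and 1.75 CPM at day 6. The ratio of day 6 to day 0 was 159.7 with a 95% counting interval of 43.9 to 1324, and that of day 1 to day 0 was 15.3 with an interval of 3.95 to 132. These intervals take counts as single reads. In LHCN-M2, LGR5 stayed under 1 CPM in every library and passed no test, and TSPAN8 on its other strand had 76.6% of its counts.

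R-spondins were rare in both lines, and each line held different members. Rspo2 of C2C12 was at 5.13, 6.27, 6.42 and 5.12 CPM at day 0. At day 1 Rspo2 was at 0.805, 1.35, 1.50 and 1.06 CPM and at day 6 at 0.388, 0.303, 0.436 and 0.267 CPM, and its log2 fold change between days 0 and 6 was -4.03 ± 0.27 (SE; adjusted p = 3.52e-11). Rspo1 had 4 counts in 1 library of day 0, none at day 1 and 2.04, 1.42, 1.53 and 1.38 CPM at day 6. With counts taken as single reads, its day 6 was at least 90.1-fold above the limit of 3 counts over day 1. Day 6 was the one day on which Rspo1 made up most of the R-spondin sum of C2C12, with 92.3% of 0.890 ± 0.165 RPKM. In LHCN-M2, RSPO1 and RSPO2 had no count in 12 libraries, and RSPO3 rose from 4 counts in 1 library of day 0 to 0.756, 0.890, 0.427 and 0.647 CPM at day 1 and 1.42, 0.902, 1.47 and 1.04 CPM at day 12. The fitted log2 fold change of RSPO3 by day 12, 5.42 ± 0.73 (SE; adjusted p = 1.54e-05), depends on the prior count because day 0 was so close to 0, and was 5.07 (adjusted p = 7.60e-06) without replicate 2 of that day.

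**Figure D3:**
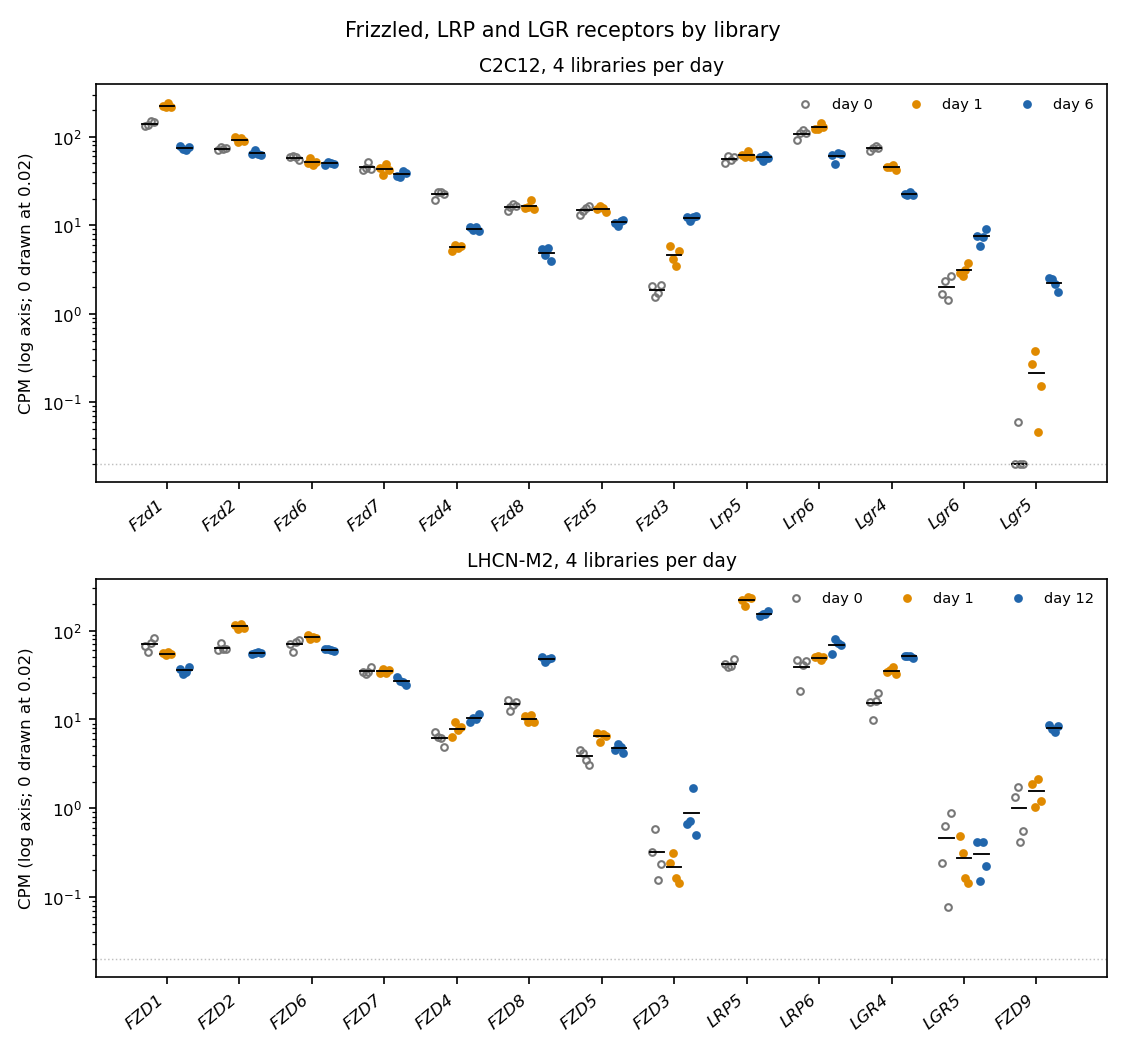
CPM of Frizzled, LRP and LGR receptors in each line, on a log axis with 0 drawn at 0.02; each point is a library (4 per day) and each bar a day mean. Lgr4 and Fzd8 of C2C12 lie lowest at day 6, LGR4 and FZD8 of LHCN-M2 lie highest at day 12, and LRP5 of LHCN-M2 stands apart from day 0 at days 1 and 12.

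The secreted antagonists with the highest RPKM at day 0 were Sfrp2 and Sfrp1 in C2C12 and DKK3 and DKK1 in LHCN-M2. In C2C12 their sum was 52.6 ± 1.67 RPKM at day 0, 34.2 ± 1.51 at day 1 and 25.7 ± 0.315 at day 6 (SD, n = 4), with Sfrp2 holding 56.3% of it at day 0. In LHCN-M2 it was 168 ± 2.19, 153 ± 6.70 and 128 ± 4.14 RPKM, with DKK3, a divergent DKK protein not known as an LRP ligand in the way of DKK1, holding 59.1% at day 0 and 85.1% at day 12. DKK1 and SFRP5 passed the filter in LHCN-M2 and not in C2C12, and Sfrp2 in C2C12 and not in LHCN-M2, where SFRP2 had 16 counts in 12 libraries.

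Sfrp1 of C2C12 was at 66.3, 65.7, 74.0 and 65.2 CPM at day 0. At day 1 Sfrp1 was at 42.7, 43.3, 41.3 and 38.6 CPM and at day 6 at 2.57, 3.36, 3.95 and 3.25 CPM. It fell at each step, with log2 fold changes of -0.71 ± 0.08 (SE; adjusted p = 2.57e-07) and -3.66 ± 0.10 (SE; adjusted p = 1.93e-17), and no library overlapped between days. Sfrp2 also fell at each step, from 63.8 ± 4.30 to 36.6 ± 3.52 and 21.8 ± 1.67 CPM, a log2 fold change of -1.55 ± 0.08 (SE; adjusted p = 4.27e-13) over 6 days. Sfrp4 was at 20.8, 20.0, 16.3 and 21.1 CPM at day 0 and at 4.47, 4.73, 4.63 and 3.89 CPM at day 1, a log2 fold change of -2.14 ± 0.13 (SE; adjusted p = 4.33e-11), and at 4.89 ± 0.893 CPM at day 6. Dkk2, which binds the LRP co-receptors, went the other way, with 6.67, 3.77, 4.29 and 3.74 CPM at day 0, 19.8, 20.7, 20.4 and 21.3 CPM at day 1 and 33.0, 36.3, 38.7 and 35.5 CPM at day 6. Its log2 fold change was 2.15 ± 0.13 (SE; adjusted p = 3.94e-11) on the first day and 2.95 ± 0.13 (SE; adjusted p = 6.08e-14) over 6 days, without overlap. Dkk3 fell from 5.27 ± 0.722 to 3.71 ± 0.294 CPM on the first day (a log2 change of -0.51, adjusted p = 0.00654) and rose to 13.3, 10.5, 15.9 and 12.7 CPM at day 6 (1.82 ± 0.14 on the log2 scale, adjusted p = 6.53e-10 against day 1). By RPKM the order at day 6 was Sfrp2 (10.1 ± 0.776) and Dkk2 (9.69 ± 0.642), which did not differ beyond their SDs, before Dkk3 (3.90 ± 0.659).

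DKK1 of LHCN-M2 (chromosome 10, 52314296 to 52318042, plus strand) was at 152, 138, 149 and 148 CPM at day 0. At day 1 DKK1 was at 34.0, 35.2, 26.5 and 31.0 CPM and at day 12 at 21.1, 16.0, 15.3 and 17.5 CPM. Its log2 fold change was -2.21 ± 0.11 (SE; adjusted p = 3.77e-10) on the first day and -3.07 ± 0.12 (SE; adjusted p = 1.05e-11) by day 12, with no overlap between days. DKK3 was at 501 ± 25.2, 657 ± 34.6 and 549 ± 12.6 CPM, a log2 fold change of 0.39 ± 0.06 (SE; adjusted p = 0.000112) followed by one of -0.26 ± 0.06 (SE; adjusted p = 0.00433). No difference between days 0 and 12 of DKK3 was called (adjusted p = 0.0875), whereas RLE scaling and DESeq2 each called a rise. DKK2 was lowest at day 1, with 4.27 ± 0.565, 2.23 ± 0.373 and 4.19 ± 0.709 CPM, and both the fall (-0.94 ± 0.18 on the log2 scale, adjusted p = 0.000585) and the later rise (0.91 ± 0.18 on the log2 scale, adjusted p = 0.000995) were called. SFRP1 was highest at day 1: 5.33, 3.24, 5.16 and 4.56 CPM at day 0, 13.4, 14.1, 13.1 and 12.8 CPM at day 1 and 2.65, 2.13, 2.74 and 2.05 CPM at day 12, with log2 fold changes of 1.55 ± 0.16 (SE; adjusted p = 1.02e-06) and -2.48 ± 0.17 (SE; adjusted p = 1.90e-08). SFRP5 had 4 counts in 1 library of day 0 and was at 7.85, 5.90, 8.93 and 8.29 CPM at day 1 and 4.07, 3.10, 3.89 and 3.83 CPM at day 12, a log2 fold change of -1.05 ± 0.25 (SE; adjusted p = 0.00348) after its first appearance. SFRP4 (chromosome 7, 37905932 to 38025695, minus strand) was at 0.0811, 0.265, 0.387 and 0.351 CPM at day 0. At day 1 SFRP4 was at 2.98, 2.85, 4.11 and 3.62 CPM and at day 12 at 31.1, 24.8, 26.3 and 25.7 CPM. It rose at each step, with log2 fold changes of 3.61 ± 0.26 (SE; adjusted p = 1.99e-08) and 2.99 ± 0.19 (SE; adjusted p = 1.15e-08). The gene on its other strand, EPDR1, had 72576 counts against 4976 and rose by 1.77 on the log2 scale by day 12, where SFRP4 rose by 6.60. WIF1, which binds WNTs, was under 0.5 CPM in every library and fell by day 12 against both earlier days (adjusted p = 0.0107 and 0.0137).

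**Figure D4:**
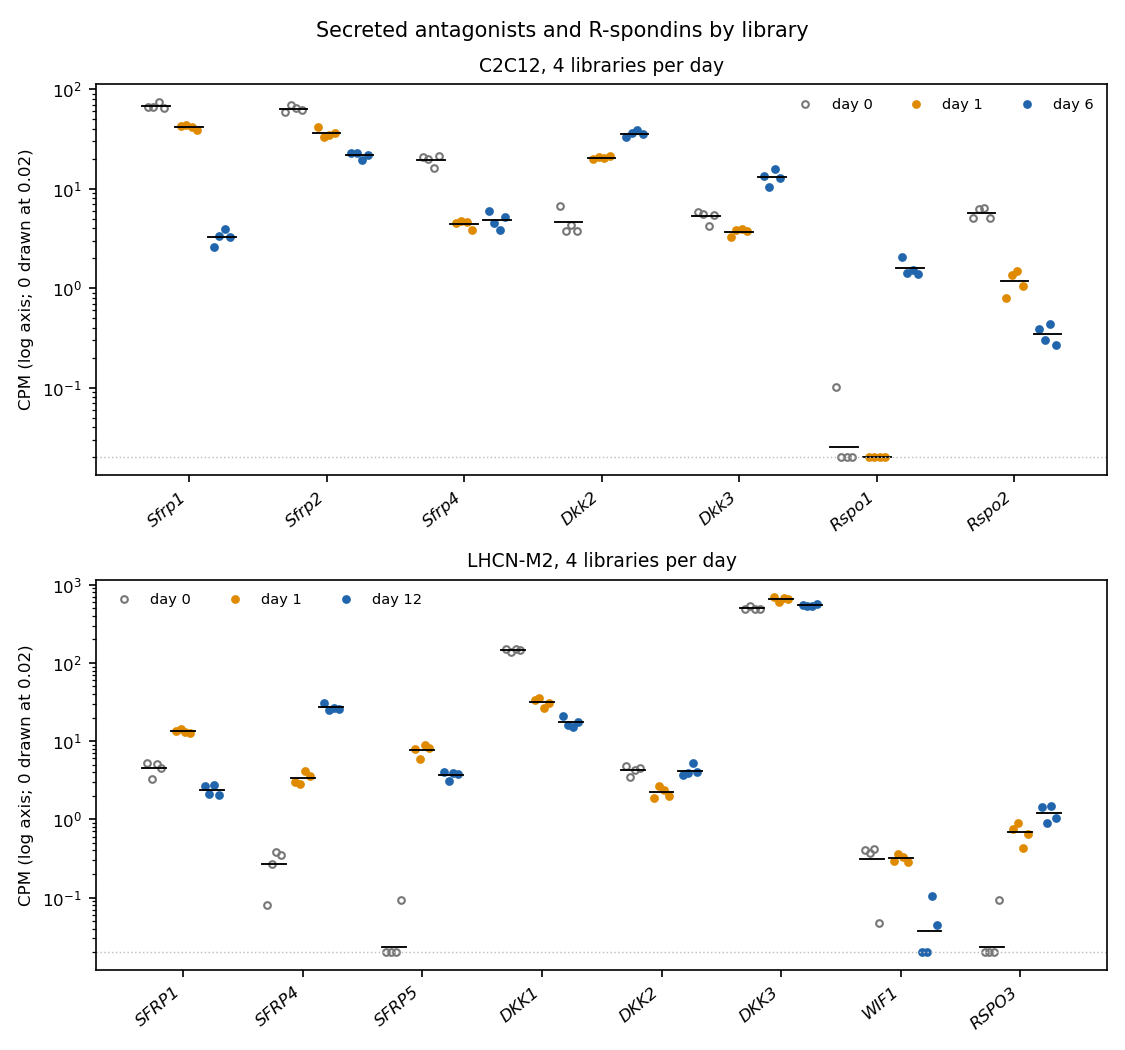
CPM of secreted antagonists and R-spondins in each line, on a log axis with 0 drawn at 0.02; each point is a library (4 per day) and each bar a day mean. Sfrp1 of C2C12 lies lowest at day 6 and Dkk2 highest, while in LHCN-M2 DKK1 lies lower and SFRP4 higher at each later day.

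Dkk2, Fzd3, Lgr5, Lgr6, Wnt7b and Wnt9a were the 6 members of C2C12 that rose both on the first day and from day 1 to day 6. Of all genes tested, 25.9% rose on the first day and 32.8% from day 1 to day 6. The share that rose at both steps was not computed. The 250 bases before the start of Dkk2, Lgr6 and Wnt9a, read from RefSeq (GRCm38.p6), are shown. Fzd3, Lgr5 and Wnt7b had no window in the sequences used. Capitals mark CTTTG, the core of the site bound by LEF1 and TCF7, and CANNTG, the E-box bound by factors such as MyoD, on either strand.
Dkk2, chr3:132085042-132085291, plus strand: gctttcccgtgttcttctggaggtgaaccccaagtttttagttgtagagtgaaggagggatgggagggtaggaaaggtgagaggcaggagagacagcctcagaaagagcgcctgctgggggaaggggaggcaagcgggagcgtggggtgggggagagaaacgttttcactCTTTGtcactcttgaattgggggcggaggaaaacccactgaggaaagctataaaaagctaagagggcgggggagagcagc
Lgr6, chr1:135105277-135105526, minus strand: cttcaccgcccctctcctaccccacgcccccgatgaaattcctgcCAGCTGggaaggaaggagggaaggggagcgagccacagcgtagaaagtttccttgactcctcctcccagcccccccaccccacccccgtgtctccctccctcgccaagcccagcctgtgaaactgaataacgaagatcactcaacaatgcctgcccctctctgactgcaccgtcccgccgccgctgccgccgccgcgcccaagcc
Wnt9a, chr11:59306680-59306929, plus strand: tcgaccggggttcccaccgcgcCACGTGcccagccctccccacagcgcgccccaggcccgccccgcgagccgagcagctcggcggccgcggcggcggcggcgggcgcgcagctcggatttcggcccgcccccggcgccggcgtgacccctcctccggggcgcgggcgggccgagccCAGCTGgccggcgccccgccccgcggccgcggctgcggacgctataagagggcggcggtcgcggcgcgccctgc
The Dkk2 window holds 1 CTTTG, 80 bases before the start, which with the next base is also the reverse complement of ACAAAG, and no CANNTG. Lgr6 holds 1 CANNTG and Wnt9a holds 2, and neither holds CTTTG. The letters are common: CTTTG was in 48.6% of all 32851 windows of this length and in 40.5% of the 42 windows of 35 members, ACAAAG in 16.5% and 14.3%, and CANNTG in 66.2% and 61.9%. A match describes the sequence and is not a binding site.

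The genes of feedback and transcription moved in different directions. Axin2, a scaffold protein that is induced by beta-catenin and limits it, was at 3.71, 4.79, 3.27 and 3.32 CPM at day 0 of C2C12, at 7.58, 7.71, 7.44 and 7.44 CPM at day 1 and at 5.24, 5.94, 4.50 and 3.64 CPM at day 6. It rose on the first day (1.00 ± 0.16 on the log2 scale, adjusted p = 3.41e-05) and fell from day 1 to day 6 (-0.65 ± 0.16 on the log2 scale, adjusted p = 0.00160). AXIN2 of LHCN-M2 was at 1.60, 0.955, 1.70 and 2.11 CPM at day 0. At day 1 AXIN2 was at 2.63, 2.49, 1.87 and 2.06 CPM and at day 12 at 3.75, 4.24, 6.39 and 3.87 CPM. Days 0 and 1 overlapped (adjusted p = 0.119), and the rise by day 12 was 1.51 ± 0.25 (SE; adjusted p = 0.000120), or 1.34 (adjusted p = 6.86e-05) without replicate 2 of day 0. Lef1, a DNA-binding partner of beta-catenin, fell at each step in C2C12, with 13.0, 15.6, 15.9 and 15.1 CPM at day 0, 9.24, 10.7, 10.8 and 11.5 CPM at day 1 and 3.95, 3.12, 4.83 and 3.47 CPM at day 6, a log2 fold change of -1.95 ± 0.13 (SE; adjusted p = 4.11e-11) over 6 days. LEF1 of LHCN-M2 was at 6.09, 7.90, 6.56 and 4.31 CPM at day 0. At day 1 LEF1 was at 2.76, 3.49, 2.60 and 2.97 CPM and at day 12 at 6.59, 5.59, 6.26 and 4.82 CPM. It fell on the first day (-1.07 ± 0.19 on the log2 scale, adjusted p = 0.000226), with a value of -0.91 (adjusted p = 0.000271) without replicate 2 of day 0, and rose from day 1 to day 12 (0.98 ± 0.19 on the log2 scale, adjusted p = 0.000680), and days 0 and 12 overlapped. Tcf7 of C2C12 fell between days 0 and 6 from 19.2 ± 2.18 to 13.7 ± 1.24 CPM (-0.48 ± 0.10 on the log2 scale, adjusted p = 0.000211). TCF7 of LHCN-M2 fell from 3.33 ± 0.348 to 1.84 ± 0.521 CPM (-0.86 ± 0.20 on the log2 scale, adjusted p = 0.00230). It shares its locus with SKP1 on the other strand, which had 119934 counts against 1465.

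The NKD genes encode inhibitors that bind Dishevelled, and each line held 1 of them above the filter. Nkd2 of C2C12 was at 1.14, 1.48, 2.07 and 1.51 CPM at day 0. At day 1 Nkd2 was at 2.21, 1.06, 0.921 and 2.14 CPM and at day 6 at 4.51, 3.79, 4.14 and 4.75 CPM, where it lay above both earlier days (1.48 ± 0.28 on the log2 scale, adjusted p = 8.06e-05 against day 0). NKD1 of LHCN-M2 was at 0.243, 0.133, 0.310 and 0.0234 CPM at day 0. At day 1 NKD1 was at 0.390, 0.200, 0.264 and 0.479 CPM and at day 12 at 0.686, 1.29, 1.45 and 1.91 CPM (2.90 ± 0.58 on the log2 scale, adjusted p = 0.000578 against day 0). Nkd1 in C2C12 and NKD2 in LHCN-M2 had 13 and 15 counts in 12 libraries.

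The changes of the lines were compared directly by an interaction term over 13347 matched symbols, of which 42 were members. The first-day change differed between the lines for 17 of them (edgeR, adjusted p under 0.05), beside 50.3% of all symbols tested. The last-day change differed for 23, beside 61.5%, and the change from day 1 to the last day for 25, beside 48.6%. Of the 27 members that passed in each line on its own, 16, 19 and 18 differed, so the other calls rest on genes that did not pass in 1 of the lines. These counts stand beside a separate fit of only the 10953 symbols that passed in each line. There the first-day change was called higher in LHCN-M2 for 3333 symbols and lower for 3152. For the last-day change the numbers were 4077 and 3670, and for the change from day 1 they were 3295 and 2862. The match was made on symbols, without a table of orthologs, and the last days are 6 in C2C12 and 12 in LHCN-M2.

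On the first day, 6 members were called in opposite directions. The share of all matched symbols with opposite calls was not computed, for this day or for the last. LGR4, SFRP1, SFRP4 and DKK3 rose in LHCN-M2 and fell in C2C12, with differences of 1.97, 2.32, 5.82 and 0.97 on the log2 scale (LHCN-M2 minus C2C12). DKK2 and FZD1 rose in C2C12 and fell in LHCN-M2, with differences of -3.02 and -0.95. The first-day rise of LRP5 in LHCN-M2 exceeded the change of Lrp5 in C2C12 by 2.31 ± 0.12 (SE; adjusted p = 1.43e-14). By the last day, 8 members had opposite calls. LGR4, FZD8, LRP6, FZD4, WNT10B, SFRP4 and WNT10A rose in LHCN-M2 and fell in C2C12. The difference was 3.55 ± 0.17 (SE; adjusted p = 2.84e-15) for LGR4, 3.51 ± 0.16 (SE; adjusted p = 9.64e-16) for FZD8 and 1.78 ± 0.23 (SE; adjusted p = 2.38e-07) for LRP6. It was 1.92 ± 0.30 (SE; adjusted p = 5.01e-06) for WNT10B and 2.12 ± 0.18 (SE; adjusted p = 1.59e-10) for FZD4. In LHCN-M2 the WNT10B libraries of the days overlapped, and its call was lost with a replicate block. FZD4 of LHCN-M2 shares its locus with PRSS23, which had more counts and also rose, and the strand setting is not known. WNT5A fell in LHCN-M2 and rose in C2C12. The difference of SFRP4 was 8.69 ± 0.28 (SE; adjusted p = 1.39e-18). For WNT10A and WNT5A a group at or near 0 counts stands behind the fitted difference, which depends on the prior count.

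Other members changed in the same direction, and the share of all matched symbols that did so was not computed. The last-day change had the same direction and a call in each line for 8 members, among them WNT9A, whose log2 fold changes were 2.06 in C2C12 and 1.84 in LHCN-M2, and FZD1, with -0.92 and -0.97. In the joint fit the difference was -0.13 ± 0.17 (SE; adjusted p = 0.531) for WNT9A and 0.03 ± 0.12 (SE; adjusted p = 0.869) for FZD1, and 0 lay within 2 SE of each. Among the 8, the size of the change differed between the lines for SFRP1, FZD3 and WNT4. Their differences were 3.52 ± 0.19 (SE; adjusted p = 3.30e-14), -1.17 ± 0.48 (SE; adjusted p = 0.0382) and 1.25 ± 0.52 (SE; adjusted p = 0.0410). From day 1 to the last day, AXIN2, LEF1, LGR4, FZD8 and WNT10A rose in LHCN-M2 and fell in C2C12, with differences of 1.67, 2.45, 1.58, 4.01 and 5.15. DKK3 and WNT5A did the reverse.

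**Figure D5:**
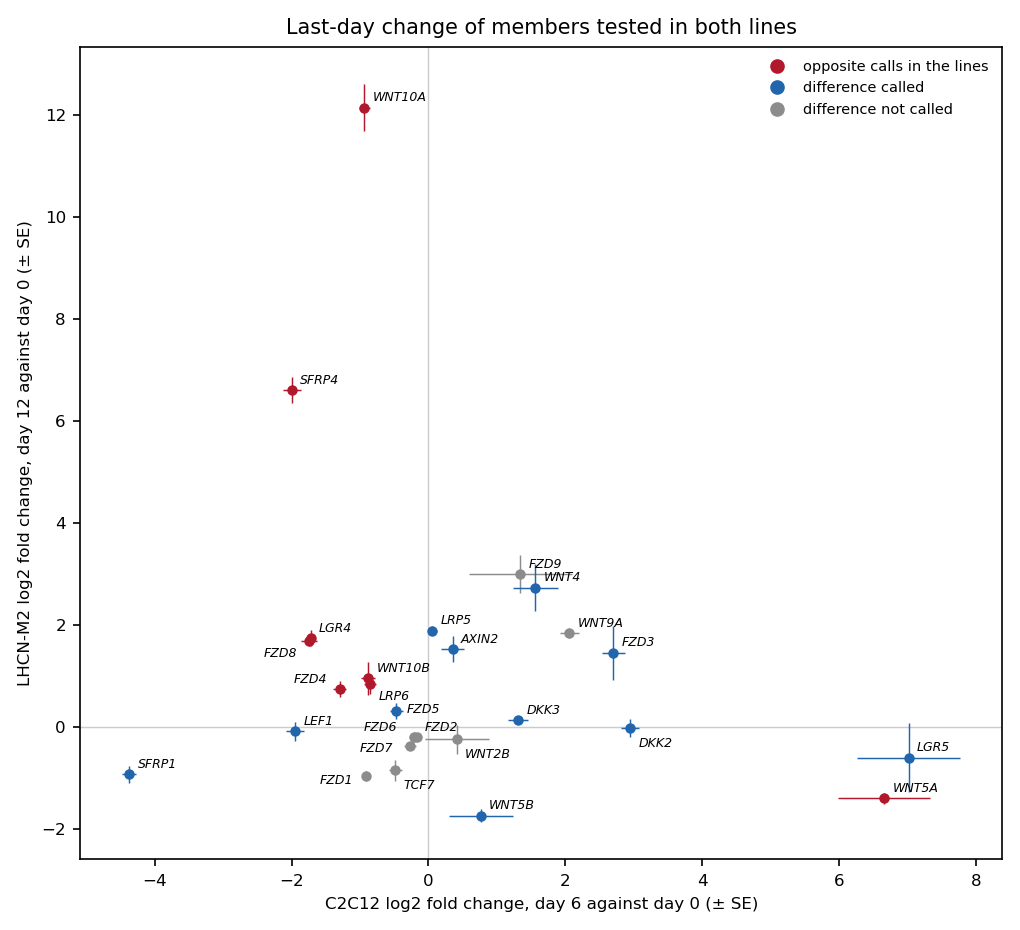
Log2 fold change of the 27 members tested in each line, last day against day 0, in C2C12 (day 6, horizontal axis) and LHCN-M2 (day 12, vertical axis), with SE bars. The 8 red points, such as LGR4 and FZD8, have calls of opposite direction, and the extreme values of WNT10A, WNT5A and LGR5 come from groups with few or no counts.

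Beyond the members, 80 further genes of the pathway in 5 lists, chosen with earlier results of these data known, were read from the same fits. In C2C12, 10 of the 13 nuclear partners of the pathway rose on the first day and none fell, beside 25.9% and 24.4% of all genes tested. From day 1 to day 6, 1 rose and 11 fell, beside 32.8% and 28.6%. Their median log2 fold change was 0.40 on the first day and -0.92 from day 1 to day 6, where that of all genes tested was -0.01 and 0.02. Tcf7l1, a mostly repressive relative of Lef1, went from 17.0 ± 0.166 to 32.5 ± 2.65 CPM on the first day (0.94 ± 0.08 on the log2 scale, adjusted p = 1.02e-08), and the co-repressor Tle2 went from 82.9 ± 4.73 to 9.79 ± 1.69 CPM from day 1 to day 6 (-3.08 ± 0.11 on the log2 scale, adjusted p = 1.02e-15). In LHCN-M2, 7 of the 13 rose on the first day and 3 fell, beside 23.4% and 23.5%, and TLE3 went from 30.8 ± 2.95 to 10.6 ± 0.754 CPM (-1.55 ± 0.09 on the log2 scale, adjusted p = 3.29e-09). Of 21 genes of the cytoplasmic relay and the destruction complex, of which 21 passed in C2C12 and 20 in LHCN-M2, 4 rose and 15 fell between days 0 and 6 of C2C12, beside 33.1% and 32.5% of all genes tested. Between days 0 and 12 of LHCN-M2, 8 rose and 6 fell, beside 27.1% and 27.5%. The median log2 fold changes of the list were -0.22 and 0.15, where those of all genes were -0.03 and -0.01. DACT1, a Dishevelled-binding protein, rose in LHCN-M2 from 4.37 ± 1.18 to 47.8 ± 4.42 CPM (3.45 ± 0.17 on the log2 scale, adjusted p = 1.48e-10) and fell in C2C12 from 2.96 ± 0.997 to 0.931 ± 0.325 CPM (-1.67 ± 0.30 on the log2 scale, adjusted p = 5.17e-05).

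Among 17 genes of WNT secretion and extracellular control, of which 8 passed in C2C12 and 13 in LHCN-M2, 6 rose and 2 fell in C2C12 and 6 rose and 3 fell in LHCN-M2 between day 0 and the last day. Over the same spans, 33.1% and 32.5% of all genes tested rose and fell in C2C12. In LHCN-M2 the shares were 27.1% and 27.5%, and they stand beside the counts of the lists that follow too. Porcn, the enzyme that attaches the lipid to WNT proteins, went from 14.7 ± 1.85 to 63.1 ± 5.94 CPM in C2C12 (2.10 ± 0.10 on the log2 scale, adjusted p = 1.61e-13). In LHCN-M2, KREMEN1 and KREMEN2, which act with DKK proteins on the LRP co-receptors, rose from 15.9 ± 0.908 to 85.5 ± 11.2 CPM (2.43 ± 0.10 on the log2 scale, adjusted p = 3.58e-11) and from 1.43 ± 0.401 to 14.6 ± 1.02 CPM (3.35 ± 0.23 on the log2 scale, adjusted p = 8.36e-09). Of 15 co-receptor and planar polarity genes, of which 12 and 13 passed, 3 rose and 7 fell in C2C12 and 7 rose and 5 fell in LHCN-M2 over the same spans. Ror2, a receptor of Wnt5a, went from 9.02 ± 1.26 to 0.844 ± 0.392 CPM in C2C12 (-3.42 ± 0.23 on the log2 scale, adjusted p = 3.51e-11), while CELSR1, an adhesion protein of planar polarity, went from 0.454 ± 0.0202 to 7.48 ± 0.604 CPM in LHCN-M2 (4.03 ± 0.32 on the log2 scale, adjusted p = 4.23e-08). Of 14 genes often used as targets of the pathway, of which 12 passed in each line, 4 rose and 7 fell in C2C12 and 4 rose and 6 fell in LHCN-M2. Ccnd1, a cyclin of the G1 phase, rose on the first day of C2C12 (1.07 ± 0.05 on the log2 scale, adjusted p = 1.18e-12) and fell on that of LHCN-M2 (-1.43 ± 0.07 on the log2 scale, adjusted p = 3.59e-10), and SNAI2 fell by the last day in both lines (-1.64 ± 0.05 on the log2 scale, adjusted p = 2.94e-16 in C2C12 and -1.86 ± 0.07 on the log2 scale, adjusted p = 1.22e-11 in LHCN-M2).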

How the data were processed

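Polyadenylated RNA of 24 libraries was sequenced, and the deposited values are raw counts per gene in 1 table per line, with a deposited gene length per row. The submitters' processing notes name featureCounts 2.0.6, HISAT2 2.2.1, and also StringTie 2.2.3 and fastp, with the builds mm10, GRCh38 and hg38. Strand setting and annotation release: not given in the sources used here. Gene coordinates deposited for C2C12 did not match mm10, and overlaps of mouse genes were read from a GENCODE annotation of that build. Those of human genes were read from the deposited coordinates. Groups came from the sample labels.

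The counts were analysed per line in R 4.3.3 with edgeR 4.0.16: filterByExpr, TMM scaling and 1 quasi-likelihood fit over all 3 days, with Benjamini-Hochberg adjustment over all genes tested and a threshold of 0.05. Log2 fold changes are edgeR's, with standard errors (SE). The lines were compared by an interaction term over the symbols that match when case is ignored (16608, of which 13347 passed the filter). The scripts were tested on simulated data. Alternatives were RLE scaling, DESeq2 1.42.0, other filters, only the days compared, a replicate block and leaving out each library. The members and lists were chosen with earlier results of these data known.

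Library values are given for members with at least 1 CPM in a day mean and a called change of at least 2-fold, up to 15 per line, and for both LRP genes and the genes of feedback and transcription; some further members are given too. Wider-pathway genes were named among the 3 largest called changes of a comparison. Same-numbered libraries of different days deviated together little (correlations of -0.12 to 0.10 in C2C12; -0.26 to 0.19 in LHCN-M2), so the numbers were not taken as pairs. No 2 libraries agreed within sampling noise (chi-square per degree of freedom of at least 6.32). Counting intervals are at 95% and cover counting error only, with counts taken as single reads.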

Additional observations from a re-analysis of the deposited data

Results flagged for a closer look

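Dixon's criterion has a chance rate of about 0.05 for continuous values. The rate does not hold where the other 3 libraries are at 0, since a lone count is then always flagged. By this criterion, 1 library lay far from the other 3 in 9 of 120 groups of 4 libraries checked. In 6 of them the other 3 libraries were at 0: Wnt5a at 0.101 CPM and Rspo1 at 0.101 CPM in replicate 1 of C2C12 day 0, Lgr5 at 0.0603 CPM in replicate 2 of that day, Nkd1 at 0.194 CPM in replicate 4 of C2C12 day 6, and SFRP5 at 0.0936 CPM and RSPO3 at 0.0936 CPM in replicate 4 of LHCN-M2 day 0. The others were Sfrp1 at 74.0 CPM in replicate 3 of C2C12 day 0 (65.2 to 66.3 in its mates), Fzd8 at 19.3 CPM in replicate 3 of C2C12 day 1 (15.5 to 16.0) and Lrp6 at 49.6 CPM in replicate 2 of C2C12 day 6 (62.5 to 65.0).

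Members called in opposite directions in the lines, with a called difference between them, are listed here as log2 differences, LHCN-M2 minus C2C12 (edgeR interaction term). On the first day these were -3.02 for DKK2, 0.97 for DKK3, -0.95 for FZD1, 1.97 for LGR4, 2.32 for SFRP1 and 5.82 for SFRP4. For the last day against day 0 they were 2.12 for FZD4, 3.51 for FZD8, 3.55 for LGR4, 1.78 for LRP6, 8.69 for SFRP4, 13.10 for WNT10A, 1.92 for WNT10B and -7.97 for WNT5A. From day 1 to the last day they were 1.67 for AXIN2, -2.06 for DKK3, 4.01 for FZD8, 2.45 for LEF1, 1.58 for LGR4, 5.15 for WNT10A and -10.72 for WNT5A. The values of WNT10A at the last day and of both WNT5A comparisons involve a group at or near 0 counts and depend on the prior count. The limits given above for WNT10B and FZD4 apply here too.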

How the results depend on the processing

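Of 402 recomputed counts of members, 398 stayed within 1.5 times the count first given. With at least 1 CPM required in 4 libraries of each line, the members lower in LHCN-M2 went from 6 to 3 on the first day and from 7 to 3 for the last day, and those higher from day 1 to the last day from 16 to 10. With only symbols that passed in each line, an alternative chosen after seeing the data, the latter count was also 10; these settings test fewer members.

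Leaving out 1 library at a time gave 11 to 12 higher and 9 to 10 lower members on the first day of C2C12, 11 to 12 and 17 to 18 for day 6 against day 0, and 13 to 14 and 14 to 16 for day 6 against day 1. In LHCN-M2 it gave 12 to 14 and 7 to 8, 15 to 18 and 8 to 9, and 12 to 14 and 12 to 13. Between the lines it gave 11 to 12 and 6 to 7, 15 to 18 and 6 to 8, and 13 to 16 and 8 to 9.

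With a replicate block, C2C12 had 11 and 10, 11 and 18, and 13 and 15 members higher and lower, and LHCN-M2 12 and 7, 16 and 8, and 12 and 13. Between the lines the block gave 11 and 6, 16 and 8, and 14 and 9. The correlations given with the methods were low, and they cannot decide whether the numbers mark shared cultures. In LHCN-M2 the block lost WNT10B and FZD2 at day 12 against day 0 and FZD4 at day 12 against day 1. On the first day of C2C12 it lost Wnt11 and gained Fzd6.

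For the 135 values of members chosen by the naming rule, 2724 recomputed values were made: 2696 kept direction and call, 20 passed the threshold where they had not, and 8 changed sign, each without a call. Among within-line values outside that rule, calls were lost in LHCN-M2: FZD2 at day 12 against day 0 with RLE scaling, DESeq2 and no filter, FZD3 in that comparison with no filter, and FZD4 and FZD5 from day 1 to day 12 with no filter; losses under the block are given above. With 1 library left out at a time, Fzd8 on the first day ranged from -0.0057 (without replicate 3 of C2C12 day 1) to 0.113. Nkd2 on the first day ranged from -0.14 to 0.264: it was -0.05 without replicate 1 of day 0, -0.14 and -0.10 without replicates 1 and 4 of day 1, and -0.015 with a replicate block. LEF1 at day 12 against day 0 ranged from -0.242 to 0.0497, the latter without replicate 2 of day 0. WNT5B from day 1 to day 12 ranged from -0.0769 to 0.0133, with 0.0133 without replicate 2 of day 12 and 0.0020 without replicate 1 of day 1. The causes were not tested. Wnt5a and Rspo1 on the first day give no value without replicate 1 of C2C12 day 0, since all other libraries are at 0. Members under 1 CPM are limited by depth.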
